A study of Mus musculus with 2 samples.

Results

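Very wide domains of H3K9me3, trimethylation of lysine 9 of histone H3, are described here in E14TG2a.4, an embryonic stem cell line of the mouse. They are the regions of at least 20 kb on chromosomes 1 to 19 in the series' own mm9 region list, which is separate from the list of each replicate. There were 837 of them among 52121 regions, or 1.61%. They held 24.8 of the 253.4 Mb in the list, or 9.78%, and 1.04% of the sequenced bases of those chromosomes. The members were chosen by width, and fold enrichment and cover by the replicates come from the same experiment, so these values are given as descriptions with no test.

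The data are ChIP-seq region lists from 2 biological replicates, which form 1 group with no second condition. The line is male, of strain 129/Ola, and the labels give the stage as embryonic at 3.5 day. The replicates have a biosample each, and no genotype change or treatment is named. No control library and no read counts are among the files used here, so depth is unknown. Peak lists cannot show whether the cells express stem cell markers. The fold enrichment of a region is the authors' value, a linear ratio, and its reference is not stated.

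H3K9me3 is a mark of silent chromatin. It is written by methyltransferases such as SETDB1 and SUV39H1 and bound by HP1 proteins, which can carry it along the chromosome. In embryonic stem cells it is known at silenced transposable elements, to which KRAB zinc finger proteins bring TRIM28 and SETDB1, and at the zinc finger genes themselves. Because repeated sequence is where the mark is best known, the sequences that recurred among the wide domains are shown first.

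Stretches of 32 bases (32-mers) that recurred in at least 150 domains fell into 2 groups. They were counted on both strands of mm9 chromosomes 1 to 19, X and Y. Of 6845 such 32-mers, 726 of simple sequence and 5 at the counting limit were left out. Of the others, 4099 had at least 10% of all their genome copies inside the wide domains, with a median of 18.6% and a range of 11.9% to 28.5%. The remaining 2015 had a median of 2.14%. Overlapping 32-mers belong to the same longer repeats, so these counts are not counts of independent sequences. They were picked because many domains hold them, so a share above that of the sequence as a whole follows in part from the choice.

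Members of the first group were present in 470 domains (56.2%) and had a median of 1183 copies in the genome. Those of the second group were present in 684 domains (81.7%) and had a median of 11309 copies. Both groups occurred in 379 domains, and neither in 62. Narrower regions of the list held a median of 71.4% of the copies of first-group 32-mers and 48.1% of those of the second group. The mm9 sequence used was not annotated for repeats, so no repeat family is named.

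The leading stretch of the first group is shown from the widest domain that holds it, on the plus strand of mm9, with capitals on the bases inside 32-mers of that group. The stretch, at chr13:77737772-77737971, lies in a domain of 94.4 kb that overlaps 2210408I21Rik. Its leading 32-mer was in 389 domains and had 2688 genome copies, of which 15.9% lay in wide domains and 71.8% in narrower regions.
First group: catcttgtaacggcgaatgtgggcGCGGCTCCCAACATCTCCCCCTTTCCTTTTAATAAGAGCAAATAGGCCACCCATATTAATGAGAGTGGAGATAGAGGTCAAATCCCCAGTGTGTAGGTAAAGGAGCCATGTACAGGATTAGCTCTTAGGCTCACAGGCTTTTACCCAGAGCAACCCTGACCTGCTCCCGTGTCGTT

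**Figure D1:**
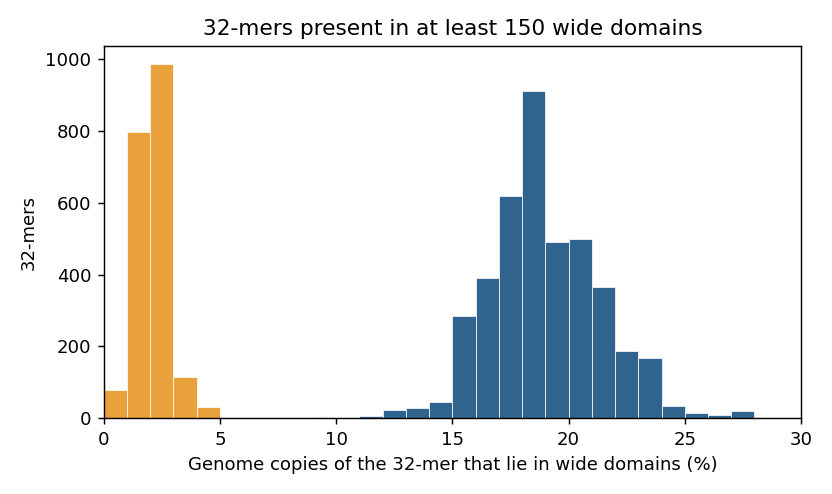
Number of 32-mers (vertical axis) by the percent of their genome copies that lie in wide domains (horizontal axis), for 32-mers present in at least 150 of the 837 domains. The 2015 32-mers under 10% (orange) and the 4099 at or above 10% (blue) form separate peaks.

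The domains ranged from 20 to 238.6 kb, with a median of 25 kb and quartiles of 22 and 32 kb. Of the 837, 271 reached 30 kb, 52 reached 50 kb and 2 reached 100 kb. Their fold enrichment ran from 1.29 to 10.7 with a median of 5.18, while narrower regions had a median of 2.81. The threshold cut through a continuous range. The 20 regions of exactly 20 kb had a median fold of 5.81, and the 27 regions of 19.8 kb just outside the rule had a median of 6.15. Among those just inside were chr2:129167601-129187600 with a fold of 4.04, chr3:14983401-15003400 with 3.52 and chr4:3358001-3378000 with 2.98. Among those just outside were chr1:6411401-6431200 with 8.09, chr1:18055201-18075000 with 2.79 and chr1:79955001-79974800 with 2.23. None of these 6 overlapped a protein-coding gene.

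Nearly all of the wide domains were found in each replicate on its own. Regions of replicate 1 covered a median of 94.1% of a domain, those of replicate 2 a median of 98.1%, and bases covered in both made up a median of 91.8%. In each replicate, at least 50% of the domain was covered for 831 of 837 domains, while 68.4% of all regions in the list met this rule. The share rose with width, from 29.0% of regions under 2 kb to 69.6%, 87.4% and 97.3% at 2 to 5, 5 to 10 and 10 to 20 kb, and 99.3% of the wide domains. Whether the series' list was called on the pooled reads of both replicates is not stated, so its cover by the replicates is not an independent check.

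**Figure D2:**
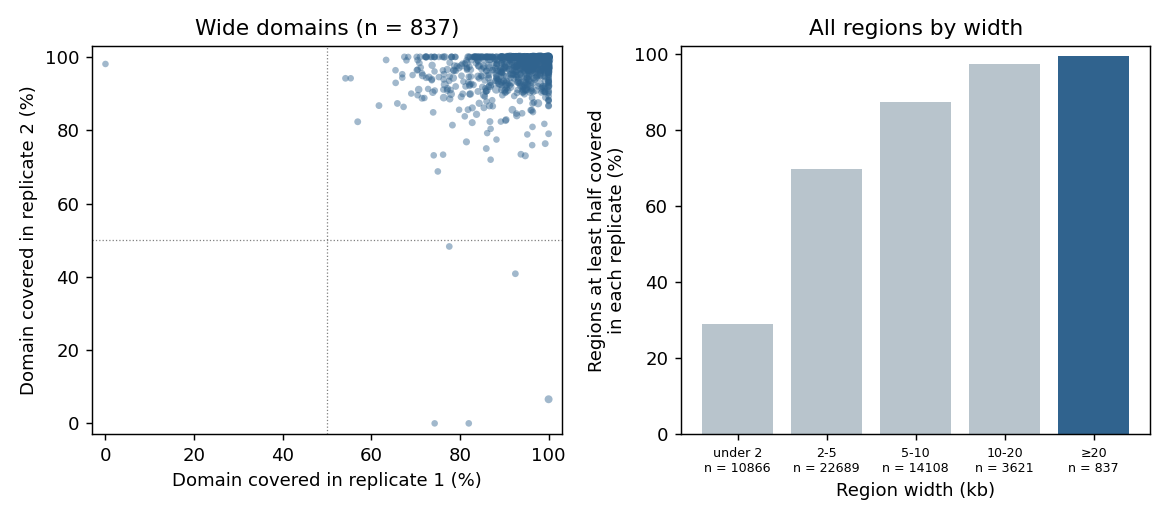
Left, percent of each of the 837 wide domains covered by regions of replicate 1 (horizontal) and replicate 2 (vertical), with larger points for wider domains and dotted lines at 50%. Right, percent of regions in each width class (kb) that were at least 50% covered in each replicate, from 29.0% under 2 kb to 99.3% of the wide domains.

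In the replicates many domains were broken into pieces. A single region touched 456 domains in replicate 1 and 609 in replicate 2, and the most pieces in a domain were 5 and 8. A piece of at least 20 kb was present in both replicates for 440 domains and in neither for 131. Replicate 1 had 559 regions of at least 20 kb of its own on these chromosomes, of which 525 touched a wide domain, and replicate 2 had 746, of which 669 did. The fold enrichment of the piece with the largest overlap was higher in replicate 2 at 804 of the 834 domains with a piece in both, with medians of 4.64 in replicate 1 and 6.41 in replicate 2. It was higher in replicate 2 at 33021 of 37559 regions of any width as well. The lists were called separately, and the reason for the higher values of replicate 2 was not tested.

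Cover by the replicates changed within a few kb of the domain edges, which were given in steps of 200 bp. At 5 kb inside an edge, replicate 1 had a region at 93.7% of edges and replicate 2 at 97.1%. At the first position inside, the shares were 52.5% and 70.3%. At 1 kb outside they were 9.87% and 13.6%, and at 20 kb outside they were 27.7% and 30.4%. Whether the authors joined neighbouring regions is not stated, and the source of the dip next to the edge was not tested. Another region of the series' list lay within 1 kb of 220 of the domains. No such count is given for narrower regions, so this need not be particular to the wide domains.

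**Figure D3:**
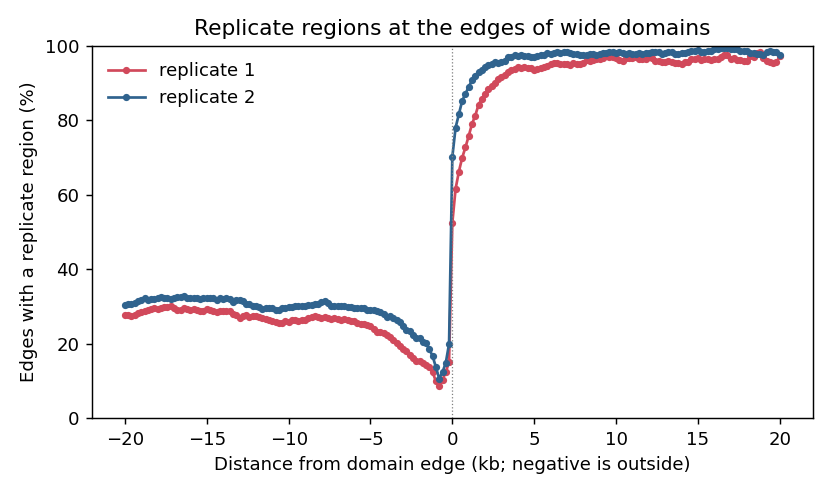
Percent of domain edges at which a replicate region was present (vertical axis) by distance from the edge in kb (horizontal axis, negative outside), for replicate 1 (red) and replicate 2 (blue). At 1 kb outside an edge cover is 9.87% and 13.6%, and it passes 90% within 5 kb inside it in both replicates.

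The 6 domains that missed the 50% rule were each covered to at least 74.3% in 1 replicate. The domains with the least cover in both replicates were 3 with no cover in 1 of them. The domain chr4:146357401-146378200 was covered to 0% in replicate 1 and 98.1% in replicate 2. The domains chr12:19320601-19342800 and chr13:65486001-65507000 were covered to 82.0% and 74.3% in replicate 1 and 0% in replicate 2. The domain chr7:50416201-50461800, which holds the zinc finger gene Zfp936, was covered to 100% in replicate 1 and 6.58% in replicate 2. The domain chr7:34247001-34271000 had 92.5% and 40.8%, and chr3:93572401-93595600, which holds Gm5773 and has the lowest fold of all, 1.29, had 77.6% and 48.3%.

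The mm10 peak lists give a second view of Zfp936. Although the mm9 list of replicate 2 had no base on the gene, its mm10 narrow peaks covered 37.4% of the gene body, and those of replicate 1 covered 29.0%. The missing cover of this gene in replicate 2 was thus seen in the mm9 list and not in the mm10 list. The reason was not tested.

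At the other end, 46 domains were covered to 100% in both replicates, and the widest 5 of these were as follows. The domain chr7:31992201-32056600 was 64.4 kb wide with a fold of 5.42. The domain chr13:62231801-62289400, over Zfp808, was 57.6 kb wide with a fold of 4.92, and the folds in the replicates were 4.38 and 5.90. The domain chr5:146616801-146672800, over part of Cyp3a11 and the start of Cyp3a44, was 56.0 kb wide with a fold of 4.04. The domain chr5:146048001-146100000, over part of Zfp498, was 52.0 kb wide with a fold of 6.02. The domain chr13:33810201-33848000 was 37.8 kb wide with a fold of 3.85. In each of these 5, the domain was a single region in both replicates.

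The widest domain lay at chr7:32079801-32318400 and measured 238.6 kb. Replicate 1 covered 98.0% of it in 4 pieces, and replicate 2 covered 97.2% in 8. The fold of its largest piece was 3.78 in replicate 1 and 5.57 in replicate 2. It holds Gm4362 and Abpe, a gene for an androgen-binding protein of the secretoglobin family, both whole. The next, chr5:146307001-146422600, measured 115.6 kb and held the whole of Cyp3a41b, a cytochrome P450 gene. Its cover was 98.4% in replicate 1 and 95.3% in replicate 2, with folds of 2.48 and 2.82. In both domains replicate 2 had the higher fold, as at most of the others.

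Of the 12 widest domains, 5 lay in the same stretch of chromosome 12. They were chr12:20827801-20926200 at 98.4 kb over Zfp125, chr12:21862001-21950600 at 88.6 kb, chr12:20513201-20598800 at 85.6 kb, chr12:20318801-20401400 at 82.6 kb, and chr12:20742601-20821000 at 78.4 kb over 1700030C10Rik. Of these, 3 overlapped no protein-coding gene. The remaining domains of the 12 were chr13:77726201-77820600 at 94.4 kb over an end of 2210408I21Rik, chr7:15359601-15446200 at 86.6 kb with no protein-coding gene, and chr4:61363401-61445600 at 82.2 kb over the major urinary protein gene Mup19. They further included chr11:73916201-73998200 at 82.0 kb over the olfactory receptor genes Olfr402 and Olfr401. The last, chr4:73264801-73346200 at 81.4 kb, held 5 genes named Gm11237, Gm11238, Gm11239, Gm428 and Gm11236, all whole, and had a fold of 2.63. Gm11236 lies inside Gm11237, so these entries are not 5 separate loci. None of the 5 had a base of an mm10 peak in either replicate.

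Wide domains were mostly outside genes. Protein-coding exons made up 1.27% of their bases and introns 12.9%, and 85.9% lay outside protein-coding genes. For chromosomes 1 to 19 these shares were 3.09%, 36.4% and 60.5%, and for narrower regions 0.97%, 19.5% and 79.6%. A protein-coding gene was overlapped by 235 domains (28.1%), and 251 domains lay over 100 kb from any protein-coding start site. The median distance to one over all 837 domains was 46.5 kb. These counts and distances are not given for narrower regions, so they need not be particular to the wide domains.

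Of 21418 protein-coding genes on chromosomes 1 to 19, 262 or 1.22% were overlapped by a domain, 131 with at least 50% of the body and 75 whole. For 248 of the 262, bases inside a domain were covered in both replicates. The start site of at least 1 transcript lay in a domain for 138, or 0.644%. Of 4055 annotated pseudogenes, 85 or 2.10% were overlapped. Among the 75 whole genes, 18 were at least 5 kb long. The 10 longest were Cyp3a41b at 26.1 kb, Gm15446 at 20.5 kb, Gm12588 at 19.6 kb, Gm11237 at 19.2 kb, Gm10778 at 15.2 kb, Gm9631 at 14.3 kb, Gm7221 at 12.8 kb, Serpina1b at 10.003 kb, Serpina1d at 9.999 kb and Zfp629 at 8.77 kb. Of these, Gm15446, Gm12588, Gm10778, Gm9631, Gm7221 and Zfp629 encode zinc fingers by their coding sequence. Each of the 10 was covered over at least 92.2% of its body in replicate 1 and at least 95.8% in replicate 2.

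**Figure D4:**
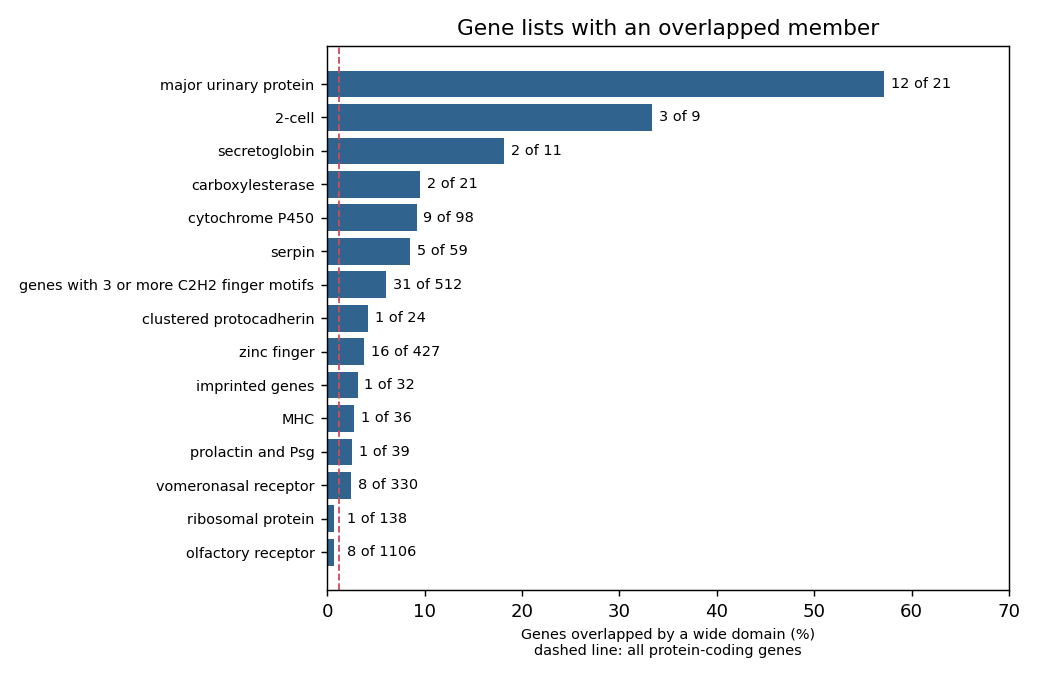
Percent of the genes in each list that were overlapped by a wide domain (horizontal axis), with the number overlapped of all genes in the list, for lists with at least 1. The dashed line is the share of all protein-coding genes, 1.22%; major urinary protein genes stand at 12 of 21 and olfactory receptors at 8 of 1106.

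Major urinary protein genes, which encode small secreted carriers of pheromones made mainly in the liver, had the highest share of any list. Domains overlapped 12 of 21 (57.1%), beside 1.22% of all protein-coding genes. Mup7 overlaps Mup2 and Mup14 overlaps Mup15, so those loci are counted more than once. In 11 of the 12, bases inside a domain were covered in both replicates, and Mup12 had 0% cover in replicate 1. Whole genes numbered 6, and they were Mup7, Mup19, Mup18, Mup10, Mup16 and Mup5, each about 4 kb long. The most overlapped bases lay in the longer gene models Mup2, with 56.5 of 86.9 kb, and Mup15, with 37.3 of 139.7 kb. Replicate 1 regions covered 100% of Mup19 and Mup5 but 30.1% of Mup7, while replicate 2 covered all of these 3 genes. The Mup genes are near-identical copies, so reads may be shared or lost among them.

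The same genes look different in the mm10 lists. Of the 12 Mup genes, only Mup5 had a replicated mm10 narrow peak, covering 28.1% of its body, and the others were at 0%. Genes that share a name may have other limits in the mm10 gene table, and no coordinates were converted between builds. How either list treated reads with more than 1 match in the genome is not stated in the labels or files.

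Zinc finger genes of the kind with repeated Cys2-His2 fingers encode DNA-binding proteins, many of which silence transposable elements. By symbol, 16 of 427 were overlapped (3.75%), beside 1.22% of all protein-coding genes. Since many such genes have only provisional names, the finger motif (2 cysteines and 2 histidines at the usual spacing) was also counted in the coding sequences, a choice made after values had been seen. Of 512 genes with at least 3 motifs, 31 were overlapped (6.05%), 15 of them whole. The most overlapped by symbol were Zfp808, with 43.0 of 43.5 kb, Zfp462, with 24.4 of 138.5 kb, Zfp277, with 21.4 of 130.7 kb, and Zfp938, with 14.2 of 16.4 kb. Zfp277 had 0 of the counted motifs and is listed by symbol only.

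In 28 of the 31 genes, the exon with the most finger motifs was wholly inside a domain. A transcript start site was inside in 21, beside 138 of all 262 overlapped protein-coding genes. The 31 genes were chosen for their overlap, and the last exons of other overlapped genes were not compared. In C030039L03Rik and Zfp462 the exon was 90.2% and 94.3% inside, and in Gm14403 it was outside. The fingers of such genes are usually encoded by the last exon, so a domain over it need not reach the start. The mm10 lists had a replicated peak on 20 of the 23 finger genes that could be matched. Among all overlapped protein-coding genes, 157 of the 214 matched had one. Replicated peaks covered 93.4% of the body of Zfp629, 67.1% of Zfp938, 55.8% of Gm15446 and 22.97% of Zfp808.

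One finger unit of 84 bases is shown for 4 of these genes to let the repeated coding unit be seen, with capitals on the 2 cysteine and 2 histidine codons. Each is the first in its finger exon and is read on the strand of the gene in mm9. Zfp629 has 19 finger motifs, and its unit is at chr7:134755616-134755699 on the minus strand. Zfp808 has 22, and its unit is at chr13:62272721-62272804 on the plus strand. Gm15446 has 16, at chr5:110371215-110371298 on the plus strand, and Zscan4e has 3, at chr7:11892024-11892107 on the minus strand.
Zfp629: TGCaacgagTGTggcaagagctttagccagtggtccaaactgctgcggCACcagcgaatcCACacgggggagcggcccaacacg
Zfp808: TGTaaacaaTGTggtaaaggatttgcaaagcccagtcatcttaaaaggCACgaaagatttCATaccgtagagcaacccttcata
Gm15446: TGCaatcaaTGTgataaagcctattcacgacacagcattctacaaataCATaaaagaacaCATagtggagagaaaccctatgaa
Zscan4e: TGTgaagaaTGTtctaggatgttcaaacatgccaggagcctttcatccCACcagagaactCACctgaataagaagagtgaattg

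Cytochrome P450 genes, whose enzymes oxidise drugs and steroids, were overlapped in 9 of 98 cases (9.18%), beside 1.22% of all protein-coding genes. Only 3 had at least 50% of the body inside, and Cyp2b23 and Cyp2d12 had just 0.056 and 0.043 kb inside. The most overlapped were Cyp3a44, with 30.9 of 31.9 kb, Cyp3a41b, whole, Cyp2j13, with 23.8 of 50.01 kb, and Cyp3a11, with 6.80 of 25.5 kb. In mm10, replicated peaks covered 3.85% of Cyp3a44, 1.18% of Cyp3a41b, 28.7% of Cyp2j13 and 0% of Cyp3a11. Serpin genes, which encode protease inhibitors, were overlapped in 5 of 59 cases (8.47%), beside the same 1.22%, and 3 had at least 50% of the body inside. Serpina1b and Serpina1d, genes of the alpha-1 antitrypsin group, were whole, Serpina1e had 10.4 of 12.05 kb inside and Serpinb6c had 8.92 of 25.9 kb. Replicated mm10 peaks covered 2.55% of Serpina1b, 4.70% of Serpina1d, 0% of Serpina1e and 21.1% of Serpinb6c. Of the 5 serpin genes, 3 had such a peak.

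The chemosensory families differed in size but gave few members. Of 1106 olfactory receptor genes, 8 were overlapped (0.723%), beside 1.22% of all protein-coding genes. Of these, 6 were whole. Among the 6, replicated mm10 peaks covered 24.5% of the body of Olfr402, 38.6% of Olfr834, 68.8% of Olfr504 and 100% of Olfr784, Olfr401 and Olfr514. Olfr872 had 0.995 kb of its 23.8 kb inside. Of 330 annotated vomeronasal receptor genes, 8 were overlapped (2.42%). The 2 whole ones are nested entries of the same name, Vmn1r63, so that locus is counted more than once. Vmn2r47 had just 0.074 kb inside. The vomeronasal genes with the most bases inside were Vmn2r60 with 31.8 of 79.3 kb, Vmn2r35 with 24.5 of 33.7 kb, Vmn2r91 with 20.8 of 51.6 kb and Vmn2r22 with 8.85 of 40.9 kb. Replicated mm10 peaks covered 16.9% of Vmn2r60, 0% of Vmn2r35, 9.91% of Vmn2r91 and 3.59% of Vmn2r22. Only 3 of the 8 vomeronasal genes had such a peak, and both Vmn1r63 entries had 0%.

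Of a short list of 9 genes known for expression at the 2-cell stage of the embryo, 3 were overlapped and whole, beside 262 overlapped and 75 whole among 21418 protein-coding genes. They were Zscan4e and Zscan4b, zinc finger genes known for short bursts of expression in embryonic stem cells, and Tdpoz3, a gene for a protein with a BTB domain. Both replicates covered 100% of each in mm9, and none had a base of an mm10 peak in either replicate. Of the secretoglobin list, Abpe and Abpa were overlapped (2 of 11), and of carboxylesterases, Ces2d-ps and Ces2h (2 of 21).

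Other lists had 1 member each. These were Meg3 of 32 imprinted genes, Pcdha11 of 24 clustered protocadherins, H2-Ob of 36 MHC genes, Psg18 of 39 prolactin and Psg genes, and Rpl27-ps3 of 138 ribosomal protein genes and their copies. Rpl27-ps3 was covered to 2.74% in replicate 1 and 100% in replicate 2. No member was overlapped among 19 pluripotency genes, 17 lineage regulators, 13 germ cell genes, 10 housekeeping genes or 19 genes of the H3K9 machinery. At the 1.22% of all protein-coding genes, lists this short would seldom hold a member. The lists of Hox, histone, keratin-associated protein, killer lectin receptor, bitter taste receptor, defensin, UDP-glucuronosyltransferase, Speer, Skint, glutathione transferase, aldo-keto reductase, kallikrein and antigen receptor genes also had 0. The antigen receptor list held 481 gene segments, and the others held from 9 genes (Speer) to 67 (histone).

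Over all genes, the mm10 replicated list held narrow peaks on part of those inside domains. Of matched genes with under 50% of the body in a domain, 86.2% of 109 had a peak, and of those with at least 50%, 60% of 105 did. Of genes wholly inside, 27 of 54 had one. Among genes with no base in a domain, 31.2% of 18226 had a peak. Genes of different length are compared here, and a longer gene is more likely to hold a peak.

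Domains gathered in clusters. A cluster had at least 3 domains within 1 Mb, and clusters less than 1 Mb apart were joined. There were 72, which held 400 domains (47.8%). Of these, 23 clusters had 6 or more. The share of narrower regions in clusters under the same rule is not given, so clustering need not be particular to the wide domains. Chromosome 7 had the most domains, 106, or 74.7 per 100 Mb, and they took up 2.38% of its sequence. Chromosome 15 had the fewest per length, 18, or 17.9 per 100 Mb. The first sequenced Mb of the chromosomes, next to the centromere, held 29 domains (3.46%) in 0.789% of the sequence, and these lay on 11 of the 19 chromosomes. The share of narrower regions in that Mb is not given, so this need not be particular to the wide domains.

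The largest cluster spanned 7.24 Mb at chr12:17834801-25073200 and held 41 domains with 1767.8 kb. Only 17.8% of its domain bases began a 32-mer found once in the genome, and 46.0% began one found 2 to 9 times. It overlapped 5 protein-coding genes, Asap2, Gm10479, B430203G13Rik, Zfp125 and 1700030C10Rik. Replicate 1 covered 92.4% and replicate 2 covered 96.7% of its domain bases. The Mup cluster at chr4:60038001-61807800 held 16 domains with 691.0 kb, over 12 of the 18 protein-coding genes in its span, and 14.04% of its domain bases were in 32-mers found once.

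Sequence that recurs only inside a cluster is shown for these 2 clusters. In each window, on the plus strand of mm9, capitals mark bases in 32-mers with every genome copy inside the cluster's span and present in several of its domains, at least 9 on chromosome 12 and 6 on chromosome 4. The first window is chr12:20907113-20907262, in the domain over Zfp125. Its leading 32-mer was in 18 of the 41 domains, and all 42 genome copies were in the span. The second is chr4:61407402-61407551, in the domain over Mup19. Its leading 32-mer was in 12 of the 16 domains, and all 15 copies were in the span.
Chromosome 12 cluster: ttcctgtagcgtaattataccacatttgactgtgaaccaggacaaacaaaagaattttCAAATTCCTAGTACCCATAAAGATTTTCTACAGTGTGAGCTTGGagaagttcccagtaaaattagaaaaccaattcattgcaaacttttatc
Chromosome 4 cluster: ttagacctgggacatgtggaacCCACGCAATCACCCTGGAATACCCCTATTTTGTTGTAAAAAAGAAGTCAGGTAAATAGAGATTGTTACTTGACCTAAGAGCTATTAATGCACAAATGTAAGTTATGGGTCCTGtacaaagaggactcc

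On each chromosome with clusters, the one with the most domains is given here, and the one with the most domain bases where clusters tie. On chromosome 7 it was chr7:13873601-16297600, with 13 domains over Obox3, Obox1 and the DNA ligase gene Lig1. A further chromosome 7 cluster at chr7:11406601-12417000 had 12 domains over Zscan4e, Zscan4b and Gm10991. On chromosome 1, chr1:119340801-120061400 had 11 domains with 409.0 kb in 0.721 Mb and no protein-coding gene in its span. On chromosome 10, chr10:81111201-81909000 had 7 domains, with a median fold of 6.87, over Gm10778, Zfp938, Gm4924, Gm4767, Gm8112, Gm8137, Gm8158 and Gm8264. On chromosome 5, chr5:110016201-110635600 had 8 domains over Golga3, Gm15446, Zfp932, 4930522L14Rik and Gm17655.

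The leading clusters of other chromosomes held fewer domains than those on chromosomes 12, 4, 7 and 1. On chromosome 13, chr13:32433201-33980600 had 8 domains over Serpinb6c and Serpinb9g, and on chromosome 9, chr9:5697001-8129000 had 8 over AK129341 and the matrix metalloproteinase genes Mmp1b and Mmp12. Chromosomes 17 and 19 had 8 each, over Fpr3, a formyl peptide receptor gene, with Vmn2r91 at chr17:17372801-20036200 and over the transporter gene Slc22a29 with Stxbp3b at chr19:8065601-9797200. On chromosome 14, chr14:42263201-44026600 had 6 over Gm7995, 1700001F09Rik, Gm17027, Gm7954 and Gm3015, with 4.92% of bases in 32-mers found once. On chromosome 18, chr18:36962801-37410600 had 4 over Pcdha11, and on chromosome 6, chr6:123303201-124579400 had 4 over C1s, Vmn2r22 and Gm5077. On chromosome 11, chr11:73421401-73998200 had 3 over Olfr402 and Olfr401. Clusters with as many domains but fewer domain bases numbered 3 more on chromosome 18, 1 more on chromosome 6, over Vmn1r43, and 2 more on chromosome 11, of which 1 lay over Gm12588, Gm9631 and Foxk2. Clusters with no overlapped protein-coding gene led on chromosome 3 with 7 domains, and on chromosomes 2 and 16 with 4 each.

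Copies of the sequence itself varied with width. In the domains, 47.4% of bases began a 32-mer found once in the genome, 18.96% one found 2 to 9 times, 9.54% one found 10 to 49 times and 24.1% one found at least 50 times. Across chromosomes 1 to 19, sampled as 1 kb in every 100 kb, the shares were 84.9%, 4.95%, 2.37% and 7.82%. Narrower regions had 9.93% in the class of 2 to 9 copies and 33.3% in the class of at least 50. In domains of at least 50 kb the class of 2 to 9 copies made up 30.9% and that of at least 50 copies 17.0%. Domains in clusters had 26.7% of bases at 2 to 9 copies, against 10.1% outside clusters. For 70 domains, fewer than 10% of bases began a 32-mer found once.

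**Figure D5:**
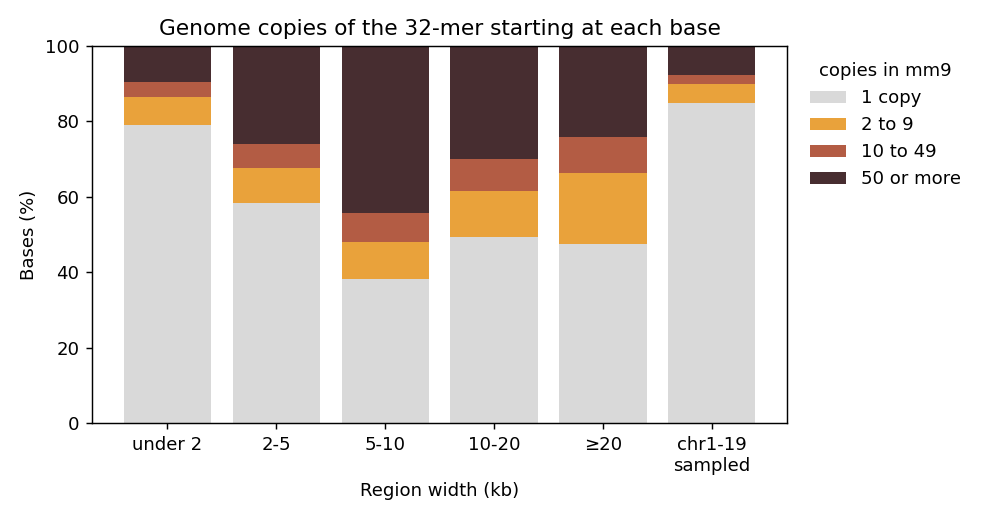
Percent of bases (vertical axis) whose 32-mer occurs 1, 2 to 9, 10 to 49 or at least 50 times in mm9, by region width in kb (horizontal axis) and for sampled bases of chromosomes 1 to 19. The class of 2 to 9 copies is 18.96% in the wide domains and 4.95% in the sampled bases, and the class of at least 50 copies is highest, 44.2%, at 5 to 10 kb.

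With 16-mers, 41.1% of domain bases began a sequence present at least 50 times, beside 49.4% in narrower regions and 18.1% of the chromosomes. GC content was 42.3% in wide domains, 42.3% in narrower regions and 41.9% in the chromosomes. CpG sites numbered 9.96 per kb in the domains, 9.87 in narrower regions and 8.51 in the chromosomes.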

How the data were processed

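H3K9me3 ChIP-seq regions of 2 replicates of E14TG2a.4 were used as the authors deposited them. The authors deposited a fold enrichment, a linear ratio, for each region. In the mm9 lists the deposited p-value and q-value are linear, and in the mm10 lists the deposited values are −log10 p and −log10 q. The sources used here give no peak caller, aligner or use of a control. Nor do they say how reads with several matches were treated, which can add or remove signal at repeats. No read counts were used, so depth and its precision are unknown.

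Wide domains were the regions of at least 20000 bp on chromosomes 1 to 19 of the series' mm9 list. The members, the gene lists and the rule by which genes are named were chosen with earlier results of these data known. The rule took the 12 widest domains with their genes, the 10 longest whole genes of at least 5 kb, up to 4 genes per family with 3 or more overlapped, every overlapped member of other lists, the domains at the width threshold and at the extremes of replicate cover (ties at 100% by width), and the leading cluster per chromosome. Genes were taken from GENCODE M1 on mm9, at an overlap of at least 1 bp. A gene counted as having its start site in a domain if the 5′ end of any of its transcripts was inside. For mm10, 214 of the 262 overlapped genes were matched by symbol to RefSeq genes of GRCm38.p6. With no protein table in use, zinc finger genes were taken by symbol. Copies of 16-mers and 32-mers were counted on both strands with numba 0.67.0 and numpy 2.4.6, and the counting was tested on simulated sequence. The 32-mer counts, the finger motifs and the sequences shown were chosen after seeing values. A 32-mer with fewer than 20 different 3-mers was called simple. Of several replicate regions in a domain, the fold of the one with the largest overlap was used. No test was run, since there is 1 group. Tables were handled with pandas 2.3.3. Alternatives were other widths, joining of regions within 1 kb, fold and cover minimums, single replicates, other overlap rules and other copy limits. A sequence of the second group of shared 32-mers is not reported here.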

Additional observations from a re-analysis of the deposited data

Results flagged for a closer look

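Chromosomes X and Y lie outside the rule, and 46 regions of at least 20 kb were found there in the series' mm9 list. They were noted because no comparison above uses those chromosomes. Of these, 39 were among the 3880 regions on X, where the widest measured 106 kb, and 7 among the 115 on Y, where the widest measured 46.8 kb. On chromosomes 1 to 19 the count was 837 of 52121. Replicate 1 had 24 such regions of its own and replicate 2 had 43. No control sample was analysed here.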

How the results depend on the processing

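The number of domains is set by the width: it was 1831 at 15 kb and 271 at 30 kb, and the lists of single replicates held 559 to 746. Leaving out a replicate gave a median cover of 94.1% to 98.1% in place of 91.8%, by construction. Counts of overlapped genes depended on the overlap rule, with 131 at 50% of the body, 75 for whole genes and 110 for domains of at least 30 kb. Zinc finger genes numbered 31 by finger motifs. The share in high-copy 16-mers was 50.4% at 20 copies and 30.6% at 200 copies. The remaining alternatives left each count within 1.5 times its value. No paired analysis was possible because there is 1 group. Depth is unknown and limits every width and cover.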
